A study of Mus musculus with 29 samples.

Results

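The proteasome is the protease that degrades proteins tagged with ubiquitin, and its subunits are encoded by the Psm genes. The genes described here were the rows of the deposited count table whose names begin with Psma, Psmb, Psmc, Psmd, Psme, Psmf or Psmg followed by a digit, with names of pseudogenes left out. The rule took 50 of 24448 gene rows, and no name had to be left out as a pseudogene. By role, 7 encode alpha subunits and 7 the standard beta subunits of the 20S core, and 5 encode immune or tissue-specific core subunits. The 19S cap has 6 ATPase genes and 11 non-ATPase genes. Another 6 encode activators and an inhibitor, 7 encode assembly chaperones, and 1, Psmc3ip, encodes a meiotic recombination factor that binds a proteasome subunit and is no part of the complex.

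RNA was sequenced from mouse nuclear transfer embryos of the BDF1 strain: enucleated oocytes that had received the nucleus of a cumulus cell, one of the somatic cells around the egg. Activation of all embryos lasted 6 h, with strontium at 10 mM, CB (spelled as in the labels) and EGTA, and collection was at the 2-cell stage, 28 h after activation. The 9 control embryos were kept without hydroxyurea (HU), a drug that blocks ribonucleotide reductase and slows DNA replication. The 8 HU embryos were kept in 10 uM HU. The labels give 1 protocol for all embryos, in which the medium was replaced after 24 h by medium that lacked HU. A further 12 libraries were single BDF1 cumulus cells, the donor cell type, with no treatment named. Each embryo library pools all cells of 1 embryo, so fewer cells with an RNA and less of it per cell cannot be told apart.

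The 20S core is a barrel of alpha and beta rings, with the cutting sites inside the beta rings. Psmb5, Psmb6 and Psmb7 carry those sites, and interferon or special tissues can replace them with Psmb8, Psmb9 and Psmb10 (the immunoproteasome), or with Psmb11 in the thymus. In the alpha ring of germ cells, Psma8 can replace an alpha subunit. The 19S cap binds ubiquitin chains, unfolds the protein and feeds it into the barrel, whereas the activators encoded by Psme1 and Psme2 (PA28 alpha and beta), Psme3 (PA28 gamma, nuclear) and Psme4 (PA200) open the barrel without ubiquitin.

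The activator genes showed the widest range of ratios between cumulus cells and embryos, so the promoters of 3 of them and of the core gene Psmb5 are shown. Psme3 and Psme4 had the lowest ratios of cumulus cells to control embryos, and Psme1 and Psmb5 the highest. The sequences are from RefSeq on GRCm38.p6, written 5′ to 3′ on the gene's strand. They lie within 250 bases before the start given with each sequence and are cut back to bases that no annotated exon covers. Capitals mark the motif named after the sequences.
Psme3 promoter, chr11:101315963-101316212, plus strand: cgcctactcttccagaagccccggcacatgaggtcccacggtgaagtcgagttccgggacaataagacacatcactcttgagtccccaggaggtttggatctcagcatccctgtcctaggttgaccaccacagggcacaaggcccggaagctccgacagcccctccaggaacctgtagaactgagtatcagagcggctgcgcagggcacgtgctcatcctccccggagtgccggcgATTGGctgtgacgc
Psme4 promoter, chr11:30771525-30771725, plus strand: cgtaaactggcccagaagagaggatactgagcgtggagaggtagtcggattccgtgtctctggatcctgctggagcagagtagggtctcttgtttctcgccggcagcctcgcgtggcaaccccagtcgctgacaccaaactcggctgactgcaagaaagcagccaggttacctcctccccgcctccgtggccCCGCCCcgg
Psme1 promoter, chr14:55578249-55578359, plus strand: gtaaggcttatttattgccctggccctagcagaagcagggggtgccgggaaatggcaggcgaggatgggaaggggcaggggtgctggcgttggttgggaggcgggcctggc
Psmb5 promoter, chr14:54618023-54618245, minus strand: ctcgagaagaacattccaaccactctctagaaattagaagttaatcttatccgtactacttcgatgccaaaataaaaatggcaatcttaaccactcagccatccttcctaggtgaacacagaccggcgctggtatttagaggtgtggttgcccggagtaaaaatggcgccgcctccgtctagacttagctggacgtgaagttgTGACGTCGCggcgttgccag

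By GENCODE M21 on GRCm38, the Psme3 gene covers chr11:101316213-101323537 and Psme4 chr11:30771726-30880361. Psme1 covers chr14:55578123-55581529 and Psmb5 chr14:54614119-54618022. The printed Psme1 stretch lies inside this Psme1 span, because the start given with its sequence is further downstream than the GENCODE start. Distances below are counted from the start given with each sequence. In Psme3 the capitals are a CCAAT box on the opposite strand, 14 to 10 bases before the start. In Psme4 they are a GC box (GGGCGG) on the opposite strand, 58 to 53 bases before the start. In Psmb5 they are an antioxidant response element (TGACNNNGC), 47 to 39 bases before the start. The Psme1 stretch as printed holds no marked motif, and a GC box lies 109 to 104 bases before its start, outside the stretch. Windows from 250 bases before to 50 bases after the start were given for 42 of the 50 genes. Only the 250 bases before the start were searched, on both strands, here and in all promoters. The antioxidant response element was in the windows of 5 of the 42 genes (Psmb5, Psmb6, Psmc6, Psmd9 and Psmd12) and in 10.2% of all 32851 promoters. The CCAAT box was in 15 of the 42 and in 33.9% of all promoters. The GC box was in 22 of the 42 and in 32.7% of all promoters. The interferon-stimulated response element (GAAA, any 2 bases, GAAA) was in 3 of the 42 and 2.98% of all. The palindrome core of nuclear respiratory factor 1 was in 1 of the 42 and 0.782% of all. This factor, NRF1 for short, is not the product of Nfe2l1, a gene described below whose protein is also called NRF1. These matches describe letters in a window, not binding.

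Gene counts per library were 1801261 to 3472116 in controls, 2442541 to 3757492 in HU embryos and 317195 to 4051494 in cumulus cells. The ribosomal RNA gene Rn45s took 16.2% to 32.5% of counts in controls, 15.2% to 28.98% in HU embryos and 49.3% to 86.6% in cumulus cells. Cells 2 and 11 had the highest Rn45s shares (86.6% and 71.2%), and cell 10 had the fewest counts and 0.00% mitochondrial counts, so these 3 cells stand apart. The cell labels were checked against markers. The summed level of 11 cumulus and granulosa genes was 245 to 4232 CPM (counts scaled to a common total of gene counts) in the cells, 14.5 to 128 CPM in controls and 36.0 to 139 CPM in HU embryos. That of 8 oocyte and early embryo genes was 0 to 47.0 CPM in the cells and 2494 to 5712 CPM over all embryos, with Zp3, Gdf9, Oosp1 and Zar1 at 0 counts in every cell. Cyp11a1 held the largest part of the cumulus sum, at 1808 CPM in the summed cells. Amhr2 went the other way, at 14.67 CPM against a control mean of 28.34 CPM. The other cumulus genes were higher in the summed cells, Nr5a2 only at 27.68 against 20.99 CPM, and Has2 had counts in 1 cell. Of the oocyte genes, Mos had 61 counts from 1 cell, or 2.535 CPM in the summed cells against 3.391 CPM in controls.

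In control embryos the genes of the 20S core differed in level, and 1 of them was far below the rest. Levels between genes are given as the deposited FPKM, which divides counts by gene length. The alpha genes ranged from Psma5 at 47.9 ± 13.1 FPKM (SD, n = 9) to Psma4 at 126 ± 26.1 FPKM. Of the beta genes, 6 ranged from 55.8 FPKM (Psmb7) to 123 ± 47.1 FPKM (Psmb3). Psmb5, the gene of the chymotrypsin-like site, stood apart at 8.77 ± 12.7 FPKM against 47.9 FPKM in the next lowest core gene, and with 0 counts in 1 control.

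The ATPase genes of the cap, which form the ring that unfolds proteins, ranged from Psmc4 at 26.1 ± 13.2 FPKM to Psmc1 at 54.0 ± 7.43 FPKM (SD, n = 9). The non-ATPase genes ranged from Psmd14, the deubiquitinase of the lid, at 17.6 ± 10.7 FPKM to the scaffold gene Psmd3 at 119 ± 20.8 FPKM. Outside the core and cap, Psme3 stood at 103 ± 25.2 FPKM and Psme4 at 52.9 ± 9.90 FPKM, above Psme2 (40.5 ± 44.0 FPKM), Psme1 (21.7 ± 27.8 FPKM) and the inhibitor gene Psmf1 (18.3 ± 6.13 FPKM). Psme2b, a near copy of Psme2 that may share its reads, stood at 0.860 ± 0.924 FPKM. Among chaperones, Psmd5, which holds ATPases before the cap is built, stood at 99.1 ± 44.6 FPKM and Psmd10 at 6.38 ± 3.87 FPKM. No test was run between genes.

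**Figure D1:**
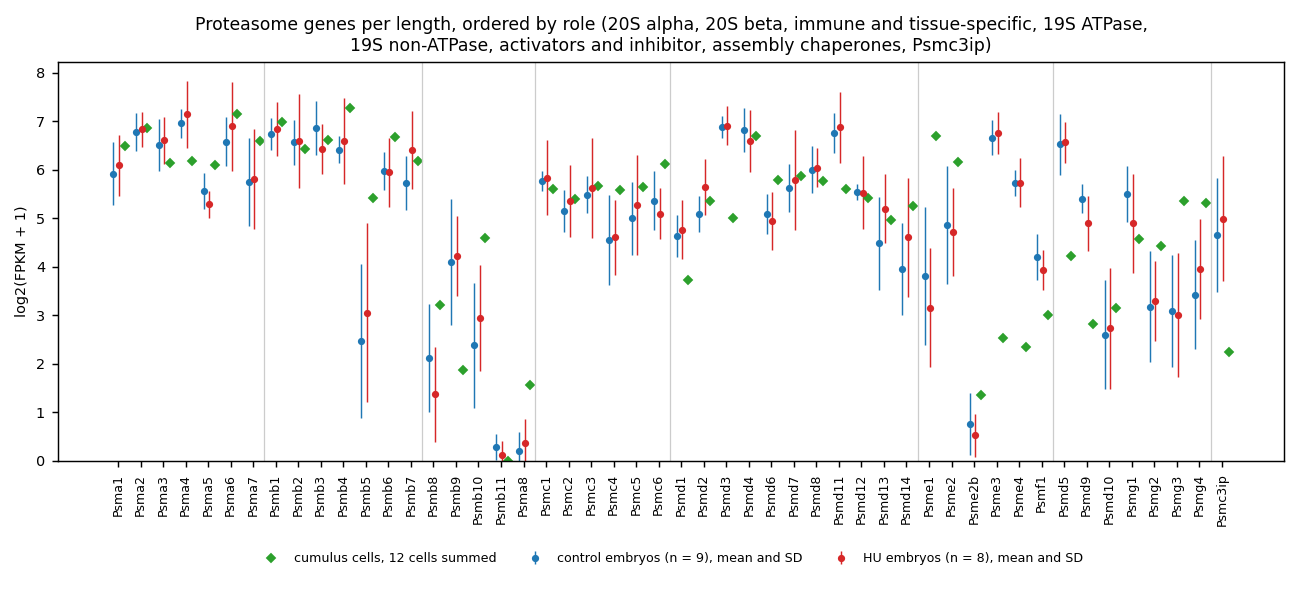
Level of each of the 50 genes as log2(FPKM + 1), on the vertical axis, by gene and role. Points with bars are the mean and SD of 9 control and 8 HU embryos (bars stop at 0), and diamonds are the 12 cumulus cells summed. In controls Psmb5 lies at 8.77 FPKM, under the other core genes, and Psme3 and Psme4 lie far above their cumulus diamonds (4.81 and 4.12 FPKM).

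The immune core genes were low but detectable in the embryos. Psmb9 stood at 22.0 ± 15.3 FPKM in controls (SD, n = 9) and 20.2 ± 10.4 FPKM in HU embryos (SD, n = 8), with counts in all 17. Psmb10 stood at 6.02 ± 5.03 and 8.94 ± 8.01 FPKM, and Psmb8 at 4.66 ± 4.30 and 2.16 ± 2.13 FPKM. Psma8, the germ-cell alpha subunit, had counts in 2 of 9 controls and 4 of 8 HU embryos, at 0.195 ± 0.393 and 0.364 ± 0.486 FPKM. Psmb11, the thymus subunit, had counts in 6 controls and 2 HU embryos, at 0.243 ± 0.243 and 0.115 ± 0.254 FPKM. The summed level of 7 immune cell markers was 1.44 to 37.5 CPM in controls and 4.88 to 34.2 CPM in HU embryos. Of these, 4 had counts in controls, with Ptprc, Adgre1 and Cd3e at 0, and 6 in HU embryos, with Cd3e at 0. In the cells, 5 had counts and the sum was 0 to 154 CPM, with Cd74 and H2-Ab1 at 0. The part of immune cells in these levels was not tested. Psmb9 overlaps Tap1 on the opposite strand, and reads of such pairs cannot be told apart without strand.

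Cumulus cells against control embryos compares the donor cell type with the embryos made from its nuclei. The labels name no animal or culture, so the 12 cells were summed and count as 1 sample, with no test and exact Poisson intervals that cover counting error only. The clearest pattern was in the activators. Psme3 and Psme4 were 19.9-fold and 12.4-fold lower in cumulus cells than in controls, while Psme1 was 4.597-fold higher and Psme2 1.73-fold higher (1 CPM added to both sides). Of the 31 core and cap genes, 26 lay within 2-fold on this scale, as did 2794 of 10051 genes with at least 10 CPM on the higher side. With Rn45s and mitochondrial genes left out of the library sizes, 5 of 14 core and 7 of 17 cap genes did. The number over all genes was then 3541 of 11418.

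Of 47 genes with at least 10 CPM on the higher side, 6 were at least 2-fold higher in cumulus cells, where 17.4% of all 10051 such genes were. At least 2-fold lower were 11, where 54.8% of all genes were, and 30 lay between. The median log2 ratio was 0.21 over these 47 genes, -1.25 over all genes and 1.97 over 73 ribosomal protein genes, a comparison complex. These ratios depend on the scaling. With Rn45s and mitochondrial genes left out of the library sizes, 27 of the 47 were at least 2-fold higher (31.6% of 11418 genes) and 6 at least 2-fold lower (37.4% of genes). The median was then 1.15 for the 47 and -0.19 for all genes. Without cells 2, 10 and 11 the counts on the first scale were 7 higher and 9 lower. Each ratio below is therefore given on both scales, first with all gene counts and then without Rn45s and mitochondrial genes.

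**Figure D2:**
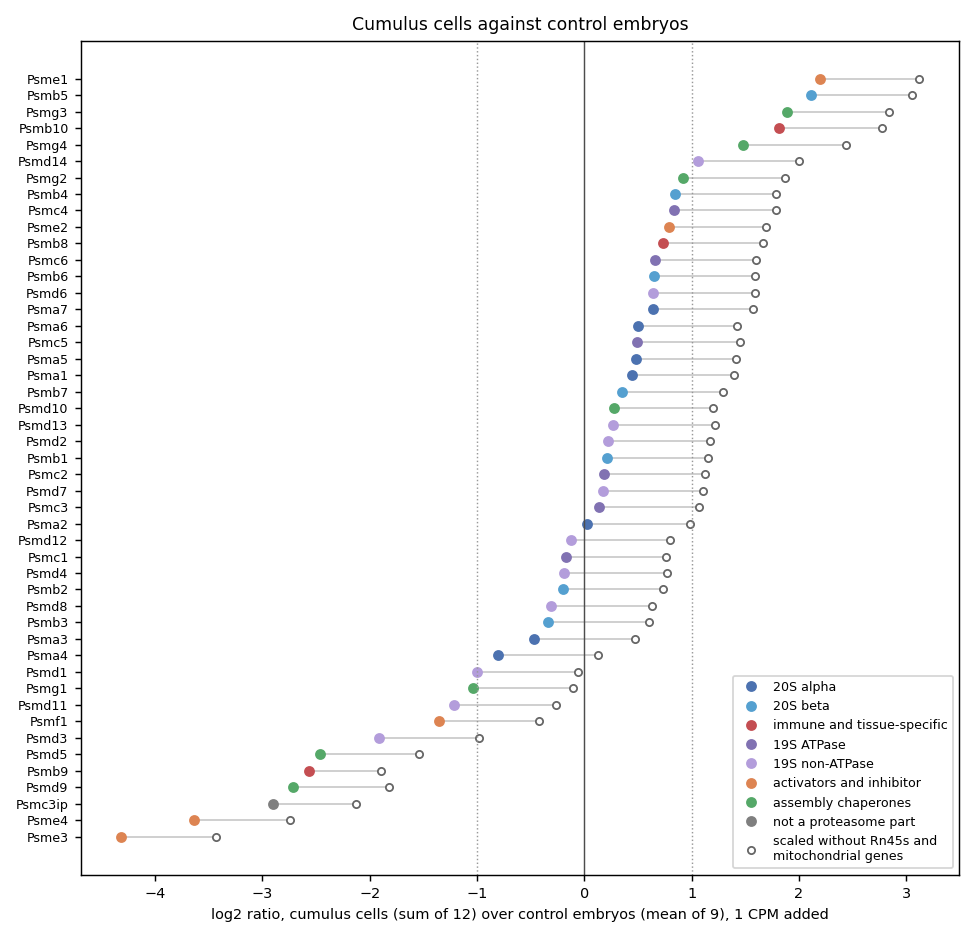
Log2 ratio of summed cumulus cells to the mean of 9 control embryos for the 47 genes at 10 CPM or more (1 CPM added). Filled points use all gene counts and are coloured by role, open points leave Rn45s and mitochondrial genes out of library sizes, and dotted lines mark 2-fold. Psme3 and Psme4 lie lowest on both scales, and Psme1 and Psmb5 highest.

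All 14 core genes had ratios between -0.80 and 2.11, with a median of 0.40, and between 0.13 and 3.06, with a median of 1.35, on the second scale. On the first scale 1 was at least 2-fold higher and 0 lower, where 17.4% and 54.8% of all genes were. On the second, 9 were higher and 0 lower, where 31.6% and 37.4% of all genes were. The cells varied widely: the mean level of the 14 core genes ranged from 7.53 CPM in cell 2 and 32.9 CPM in cell 11 to 269 CPM in cell 10, with the other cells at 79.1 to 143 CPM. Cell 10 was the highest cell for 19 of the 31 core and cap genes.

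Psmb5 was the core gene with the largest ratio. Controls held 0 to 35.5 CPM with a median of 3.24 CPM. HU embryos held 0.599 to 29.4 CPM with a median of 10.9 CPM, and single cumulus cells 2.14 to 93.2 CPM with a median of 23.0 CPM. All 12 cells had counts, and 5 of them were above every control (8 of 12 on the second scale), so the groups overlapped. The sum of cells was 36.3 CPM (33.9 to 38.8) against a control mean of 7.64 ± 11.1 CPM (SD, n = 9), a log2 ratio of 2.11 and 3.06. Expressed relative to the mean CPM of the 14 core genes in the same library, which does not depend on library size, Psmb5 was 0.362 in the cells. The controls had 0.0840 ± 0.117 (SD, n = 9), a log2 difference of 2.11, and ran from 0 to 0.133 apart from control 3 at 0.374. Control 3 also held the highest Psmb5 level. Without it the ratios were 2.86 and 3.78, or 7.24-fold and 13.7-fold higher in the cells, and 11 of 12 cells were above the other 8 controls. The other catalytic genes differed less: Psmb6 had ratios of 0.65 and 1.59, and Psmb7 0.35 and 1.30.

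Among immune subunits, the order per length in the summed cells was Psmb10 (23.2 FPKM), Psmb8 (8.29 FPKM) and Psmb9 (2.68 FPKM), whereas Psmb9 had the highest mean in controls. Psmb10 had 29.4 CPM in the cells (27.3 to 31.7) against 7.65 ± 6.38 CPM in controls, with ratios of 1.81 and 2.77. Its single-cell values ran from 0 to 55.8 CPM with a median of 29.6 CPM, and 8 of 12 cells were above every control (9 of 12 on the second scale). Psmb9 had 2.16 CPM in the cells (1.61 to 2.83) against 17.7 ± 12.4 CPM in controls, with ratios of -2.57 and -1.90. Counts of Psmb9 came from 3 of 12 cells, at 9.77 to 14.1 CPM, whereas all 9 controls had counts at 1.67 to 37.7 CPM. Psmb8 had 10.1 CPM in the cells and 5.70 ± 5.26 CPM in controls. Psma8 had 79 counts from 3 cells, and Psmb11 had 0 counts in all 12, which allows up to 0.153 CPM by the exact Poisson interval.

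The cap genes had a median ratio of 0.17 and 1.10. The ATPase genes lay between -0.17 and 0.84 on the first scale, with none past 2-fold. On the second they lay between 0.76 and 1.79, with 5 of 6 at least 2-fold higher. Psmd14 was the only cap gene at least 2-fold higher on the first scale, where 17.4% of all genes were. Its ratios were 1.06 and 2.00, and the first was as low as 0.93 with 1 control left out. On the second scale 10 of the 17 cap genes were at least 2-fold higher, against 31.6% of all genes. Psmd3, Psmd11 and Psmd1 were at least 2-fold lower on the first scale, where 54.8% of all genes were. None of the cap genes was at least 2-fold lower on the second, where 37.4% of all genes were. Psmd3 had 67.0 CPM in the cells (63.7 to 70.3) against 256 ± 44.7 CPM in controls (SD, n = 9), with ratios of -1.92 and -0.98. Controls held 214 to 360 CPM, with a median of 253 CPM. The cells held 0 to 224 CPM, with a median of 77.2 CPM, and 11 of 12 were below every control (10 of 12 on the second scale). Psmd11 had ratios of -1.21 and -0.27, and Psmd1 had -1.003 and -0.06, with a first-scale ratio of -0.94 when control 4 was left out. Psmd1 overlaps the protein-coding genes Gm21972 on the same strand and Htr2b on the opposite strand.

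The nuclear activator gene Psme3 had the lowest ratio. Controls held 176 to 356 CPM with a median of 283 CPM. HU embryos held 175 to 425 CPM with a median of 268 CPM. The cells held 0 to 48.6 CPM with a median of 5.84 CPM, 8 of 12 had counts, and all 12 were below every embryo. All 12 were also below every control on the second scale. The sum of cells was 12.6 CPM (11.2 to 14.1) against 270.0 ± 65.9 CPM (SD, n = 9), with ratios of -4.32 and -3.43. Relative to the core mean of the same library, Psme3 was 3.16 ± 0.854 in controls, 3.27 ± 1.34 in HU embryos and 0.126 in the summed cells. Genes outside the family, such as Akirin2, Rad23b and Ubqln1, also had 12 cells below every control on the first scale. The share of all genes separated in this way was not counted, here or for the genes below. Detected genes had a median of 6862 in the cells and 14513 in controls.

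Psme4, which encodes PA200, showed the same separation. Controls held 256 to 433 CPM with a median of 352 CPM. HU embryos held 175 to 501 CPM with a median of 329 CPM, and the cells 0 to 59.9 CPM with a median of 27.8 CPM. All 12 cells were below every control on both scales, and 10 of 12 had counts. The ratios were -3.63 and -2.74, and relative to the core mean Psme4 was 4.01 ± 0.997 in controls (SD, n = 9) and 0.264 in the summed cells. A processed pseudogene, Gm12103, overlaps Psme4 on the opposite strand.

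Psme1 and Psme2, which encode the subunits of the PA28 ring of the cytoplasm, were on the other side. Psme1 held 2.97 to 88.7 CPM in controls with a median of 11.5 CPM, and 1.73 to 30.1 CPM in HU embryos with a median of 7.77 CPM. The cells held 0.712 to 328 CPM with a median of 110.5 CPM, and 8 of 12 were above every control (11 of 12 on the second scale). The ratios were 2.20 and 3.12, and relative to the core mean Psme1 was 0.233 ± 0.281 in controls (SD, n = 9) and 1.01 in the summed cells. Psme2 had 69.0 CPM in the cells (65.7 to 72.4) against 39.6 ± 43.0 CPM in controls, with ratios of 0.79 and 1.70, and 1 of 12 cells was above every control (4 of 12 on the second scale). Control 6 was the highest control for both genes, at 88.7 CPM of Psme1 and 148 CPM of Psme2. Without control 6, Psme1 had ratios of 2.89 and 3.88 (7.41-fold and 14.7-fold higher in the cells), and 11 of 12 cells were above the other 8 controls on the first scale. Psme2 then had ratios of 1.37 and 2.33 (2.59-fold and 5.04-fold), and 8 of 12 cells were above the other 8 controls. Psme1 overlaps Emc9 on the opposite strand. The share of Psme3 in the summed FPKM of Psme1, Psme2 and Psme3 was 2.69% in the summed cells and 68.5% ± 17.8 in controls (SD, n = 9). The inhibitor gene Psmf1 had ratios of -1.35 and -0.42.

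**Figure D3:**
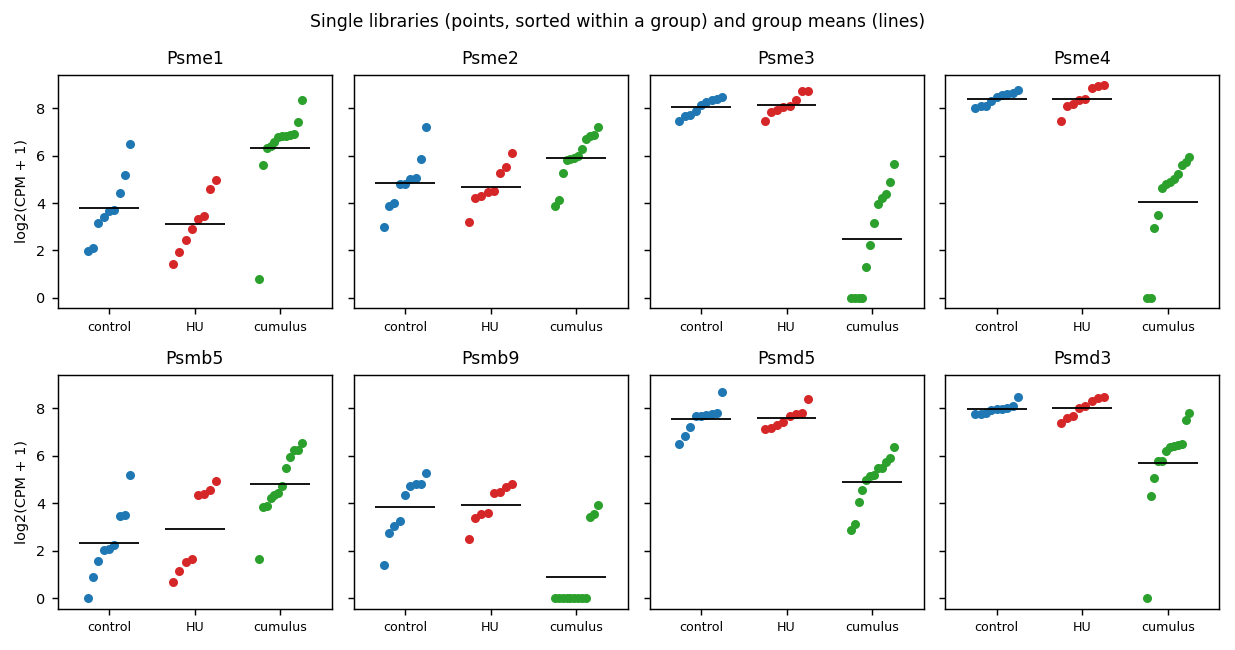
Level of 8 genes in single libraries as log2(CPM + 1), with points sorted by value within a group and a line at the mean of each group's log2 values (9 control embryos, 8 HU embryos, 12 cumulus cells). CPM here use all gene counts. For Psme3, Psme4 and Psmd5, 12 of 12 cells lie below every control, and for Psme1 8 of 12 lie above every control. Without Rn45s and mitochondrial genes in the library sizes, 12, 12 and 8 cells lie below and 11 above. The share of all genes separated in this way was not counted. With all gene counts, 54.8% of genes were at least 2-fold lower in the cells and 17.4% at least 2-fold higher.

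The assembly chaperones went both ways. Psmd5 had 35.9 CPM in the cells (33.6 to 38.4) against 202 ± 91.1 CPM in controls (SD, n = 9), with ratios of -2.46 and -1.54. Its controls held 89.4 to 408 CPM and the cells 6.39 to 81.4 CPM, so the groups did not overlap on the first scale. On the second the controls held 115 to 513 CPM and the cells 14.8 to 318 CPM, with 8 of 12 cells below every control, so the groups overlapped. Psmd9, another chaperone of the ATPase ring, had 15.8 CPM in the cells and 109 CPM as the mean of controls, with ratios of -2.72 and -1.82, and counts in 5 of 12 cells. All 12 cells were below every control on the first scale and 10 of 12 on the second. Psmg3 and Psmg4, which help to form the alpha ring, had ratios of 1.89 and 1.48 on the first scale and 2.84 and 2.44 on the second. Psmg1, of the other alpha-ring chaperone pair, had ratios of -1.04 and -0.11, with -0.90 on the first scale when control 7 was left out. Psmd5 overlaps Cutal and Psmd9 overlaps Hpd, both on the opposite strand. Psmg3 overlaps the protein-coding gene Gm26938 on the same strand.

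Psmc3ip, the recombination factor that shares the name pattern, had 88 counts from 3 cells, or 3.66 CPM (2.93 to 4.51). Controls held 8.90 to 129 CPM with a median of 18.1 CPM, and the ratios were -2.90 and -2.13. In 10 of 12 cells it was below every control (9 of 12 on the second scale). Control 3 was the highest control, and without it the ratios were -2.30 and -1.53. Psmc3ip overlaps Mlx on the opposite strand.

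HU against control embryos asks whether exposure to HU changed these transcripts. No proteasome gene passed the test, and in edgeR with all 17 embryos no gene of the table did. The smallest p was that of Psmd2, a scaffold of the cap base, which had 104 ± 29.1 CPM in controls (SD, n = 9) and 160 ± 56.2 CPM in HU embryos (SD, n = 8). Next came Psmb7, the trypsin-like subunit, with 54.1 ± 21.7 CPM in controls and 93.7 ± 51.8 CPM in HU embryos. Fold changes were above 0 for 26 of the 31 core and cap genes and for 2 of the 5 activator and inhibitor genes tested. They were also above 0 for 53.6% of all genes tested and for 69 of 76 ribosomal protein genes.

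In edgeR's quasi-likelihood test with Benjamini-Hochberg adjustment over all genes, 0 of the 46 genes that passed the filter on low counts were higher and 0 lower (0% of 11476 genes in each direction). Psmb8, Psmb11, Psma8 and Psme2b did not pass the filter. At an unadjusted p under 0.05, 2 of the 46 were higher (Psmd2 and Psmb7), where 3.81% of all genes were, and 0 were lower, where 2.04% were. Over all genes that was 437 higher and 234 lower, and 617 higher and 25 lower when libraries were scaled by ERCC counts, which moved the median of all genes from 0.04 to 0.19 and that of the members to 0.29. DESeq2 and limma-voom also called 0 of the 46, with 2 higher and 0 lower (DESeq2) and 2 higher and 1 lower (limma-voom) at an unadjusted p under 0.05. The log2 fold change was above 0 for 35 of the 46 genes (76.1%), against 53.6% of all genes and 69 of 76 ribosomal protein genes. The median was 0.17 over the 46, 0.04 over all genes and 0.31 over the ribosomal protein genes.

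**Figure D4:**
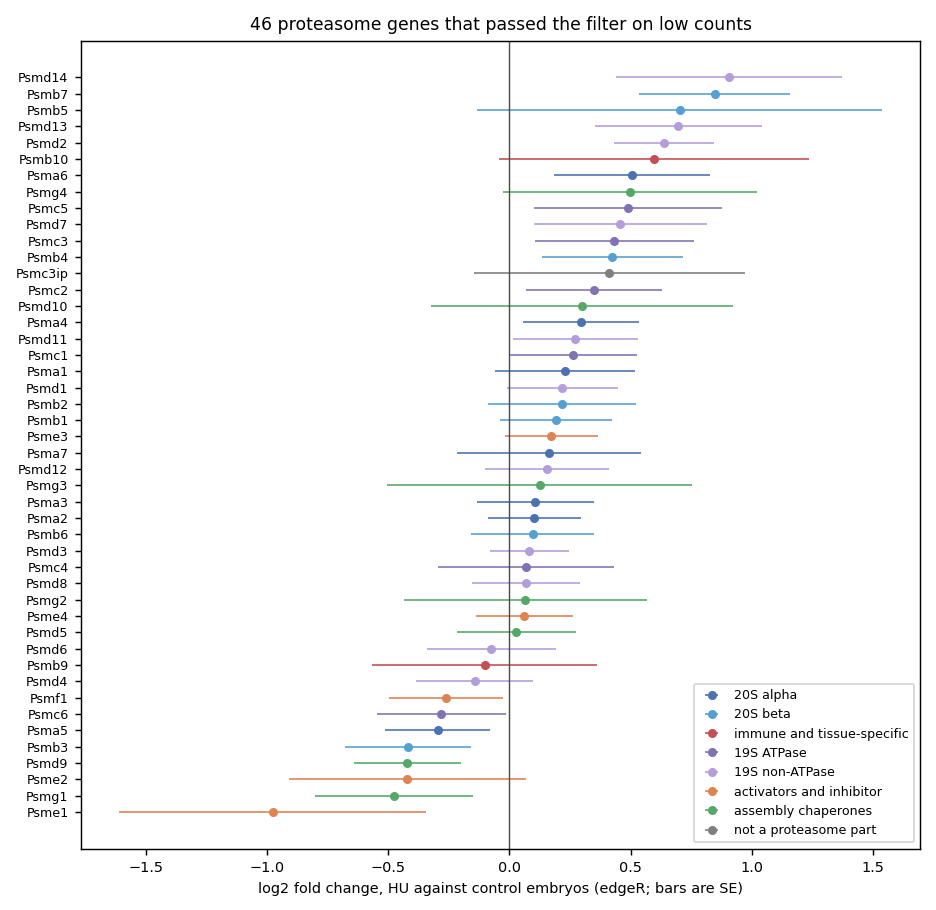
Log2 fold change of HU against control embryos (8 and 9) for the 46 genes tested, from the edgeR fit, with SE as bars and colour by role. The values run from -0.98 (Psme1) to 0.91 (Psmd14), and 35 of 46 lie above 0.

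Psmd2 held 70.9 to 167 CPM in controls with a median of 96.0 CPM. It held 66.8 to 240.0 CPM in HU embryos with a median of 165 CPM. There were 7 of 8 HU embryos above the control median, 4 above every control and 1 below every control. The log2 fold change was 0.64 ± 0.21 (SE, edgeR, unadjusted p 0.00514, adjusted p 0.829).

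Psmb7 held 29.01 to 93.3 CPM in controls with a median of 43.8 CPM, and 44.6 to 171 CPM in HU embryos with a median of 75.8 CPM. All 8 HU embryos were above the control median, and 4 were above every control (HU 2, 4, 5 and 7). The log2 fold change was 0.85 ± 0.31 (SE, edgeR, unadjusted p 0.0123, adjusted p 0.829). The gene Nek6 overlaps Psmb7 on the opposite strand.

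Over the 14 core genes the median log2 fold change was 0.20, with 12 above 0, 1 at an unadjusted p under 0.05 and 0 passing after adjustment. Over the 17 cap genes it was 0.26, with 14 above 0, 1 at an unadjusted p under 0.05 and 0 passing. Of all genes tested, 53.6% were above 0. Psmd13, a lid gene, had 39.2 ± 19.5 CPM in controls (SD, n = 9) and 61.7 ± 26.8 CPM in HU embryos (SD, n = 8). Its log2 fold change was 0.70 ± 0.34 (SE, adjusted p 0.835 by edgeR). Psmd13 overlaps Sirt3 on the opposite strand. Psmd14 had 0.91 ± 0.47 (SE, adjusted p 0.835 by edgeR), at 9.88 to 116 CPM in HU embryos and 6.92 to 52.4 CPM in controls. On the other side, Psmb3, a beta subunit without a cutting site, had 89.9 ± 34.4 CPM in controls and 66.2 ± 25.5 CPM in HU embryos, with a log2 fold change of -0.42 ± 0.26 (SE, adjusted p 0.841 by edgeR).

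The 5 activator and inhibitor genes tested had a median log2 fold change of -0.26, with 2 above 0. Psme3 (0.17 ± 0.19, SE) and Psme4 (0.06 ± 0.20, SE) were the genes above 0. Psme1 had -0.98 ± 0.63 (SE, adjusted p 0.844 by edgeR), Psme2 -0.42 ± 0.49 and Psmf1 -0.26 ± 0.24. Control 6, the embryo with the highest Psme1 and Psme2, set most of the Psme1 value: the second highest controls held 34.8 CPM of Psme1 and 56.1 CPM of Psme2. Without control 6 the log2 fold change of Psme1 was -0.22.

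Over the 7 chaperone genes the median was 0.07, with 5 above 0. Psmd9 had 66.6 to 141 CPM in controls, with a median of 109 CPM, and 42.7 to 141 CPM in HU embryos, with a median of 73.8 CPM. Its log2 fold change was -0.42 ± 0.22 (SE, adjusted p 0.835 by edgeR), and 2 of the HU embryos were below every control. Psmd5, the most abundant of them per length, had 199.5 ± 64.1 CPM against 202 ± 91.1 CPM. Psmc3ip had 10.65 to 111 CPM in HU embryos and 8.90 to 129 CPM in controls, so the groups overlapped over nearly their whole range.

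The balance of immune and standard catalytic genes was compared as shares of FPKM within each embryo. Psmb8 made up 30.1% ± 32.5 of Psmb8 and Psmb5 in HU embryos (SD, n = 8) and 46.02% ± 37.6 in controls (SD, n = 9; 2-sided exact permutation p 0.361). The range was 0% to 81.0% in HU embryos and 3.23% to 100% in controls, since Psmb5 had 0 counts in control 1. Psmb9 made up 24.4% ± 11.6 of Psmb9 and Psmb6 in HU embryos and 23.2% ± 13.4 in controls (exact permutation p 0.855). Psmb10 made up 9.31% ± 7.34 of Psmb10 and Psmb7 in HU embryos and 10.3% ± 9.68 in controls (exact permutation p 0.815). Psme3 made up 74.0% ± 14.1 of Psme1, Psme2 and Psme3 in HU embryos and 68.5% ± 17.8 in controls (exact permutation p 0.520). The adjusted p over these 4 shares was 0.855 for each. In the summed cumulus cells the 3 immune shares were 16.6%, 2.59% and 24.5%.

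Core and cap genes were both highest in HU 4, HU 5 and HU 7 among the HU embryos. The mean log2(CPM + 1) of the 14 core genes was 6.90, 6.97 and 6.71 in HU 4, HU 5 and HU 7, and that of the 17 cap genes was 6.78, 7.12 and 6.69. The highest core mean of a control was 6.45, in control 3, and the highest cap mean 6.53, in control 5. The other 5 HU embryos lay at 5.68 to 6.26 (core) and 5.84 to 6.25 (cap), inside the control ranges of 5.73 to 6.45 and 5.79 to 6.53 apart from the core mean of HU 8 at 5.68. The ribosomal protein genes were also highest in HU 4, HU 5 and HU 7 (6.35, 6.21 and 6.17), and control 3 was the highest control (6.10). Summed over the 50 genes, controls held 3263 to 4460 CPM and HU embryos 3450 to 5700 CPM.

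**Figure D5:**
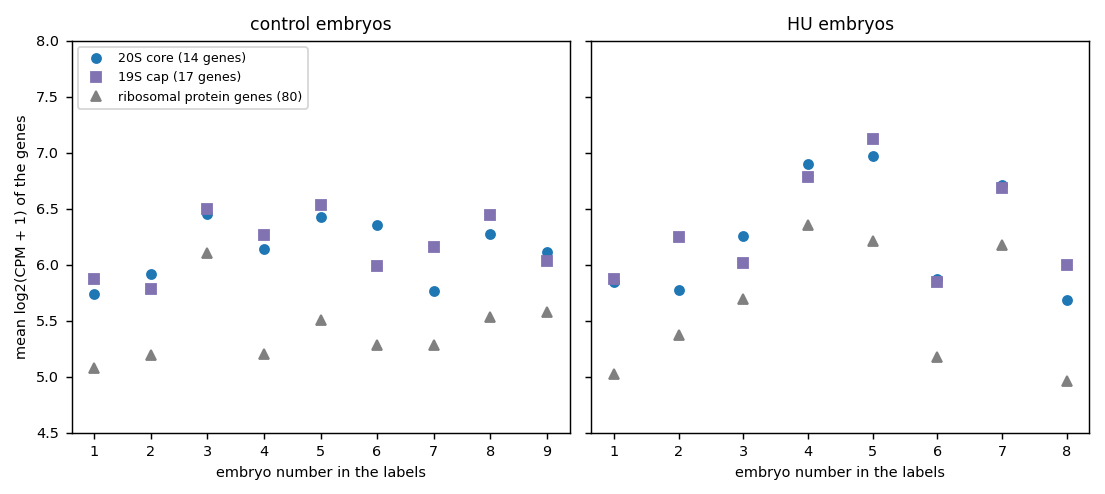
Mean log2(CPM + 1) of the 14 core genes, 17 cap genes and 80 ribosomal protein genes (vertical axis) in each of the 9 control and 8 HU embryos (horizontal axis, number in the labels, which has no order). HU 4, HU 5 and HU 7 lie above the other HU embryos for all 3 gene groups, and control 3 is the highest control for the ribosomal protein genes.

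These embryos also differed in other measures. Detected genes numbered 12887 in HU 4, 14293 in HU 5 and 13892 in HU 7, against 14939 to 15421 in the other HU embryos, and 13875 in control 3, the fewest of the controls. The part of detected genes in the proteasome levels was not tested. HU 5 was the highest HU embryo for 12 of the 31 core and cap genes, HU 4 for 8, HU 2 for 4 and HU 7 for 3. Among controls, control 3 was the highest for 10 and control 5 for 8. The spread between embryos, as the SD of log2 values, was larger in HU embryos for 29 of the 46 genes tested (63.0%) and for 60.8% of all genes tested. The median SD of the 46 was 0.505 in controls and 0.756 in HU embryos, and over all genes 0.654 and 0.728.

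The HU comparison was also read for other genes of the pathway. Of 8 genes that control proteasome gene expression, 0 passed after adjustment, and 1, Nfe2l1, had an unadjusted p under 0.05. Nfe2l1 encodes a transcription factor that induces proteasome genes when the protease is blocked. Its level was 194.5 ± 44.6 CPM in controls (SD, n = 9) and 142 ± 35.1 CPM in HU embryos (SD, n = 8), with a log2 fold change of -0.42 ± 0.17 (SE, edgeR, unadjusted p 0.0232, adjusted p 0.829). Akirin2, which guides proteasomes into the nucleus, had 0.34 ± 0.20 (SE), and the groups overlapped.

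Of 10 associated factors without a Psm name that were tested, 0 passed after adjustment, and the ubiquitin ligase gene Ube3c had an unadjusted p under 0.05. Ube3c had 56.6 ± 22.7 CPM in controls (SD, n = 9) and 91.8 ± 29.6 CPM in HU embryos (SD, n = 8), with a log2 fold change of 0.70 ± 0.26 (SE, edgeR, unadjusted p 0.0142, adjusted p 0.829). Pomp, the maturation factor of the core, had -0.41 ± 0.24 (SE) and the ubiquitin receptor gene Adrm1 0.47 ± 0.41 (SE). Of 14 genes of ubiquitin supply and shuttling, 0 had an unadjusted p under 0.05. Rps27a, which encodes ubiquitin fused to a ribosomal protein, had 0.32 ± 0.30 (SE). Of 7 antigen processing genes tested, 0 had an unadjusted p under 0.05, and B2m and H2-K1 had 0.10 ± 0.39 and -0.06 ± 0.40 (SE). In the summed cumulus cells Nfe2l1 had 107 CPM, Akirin2 9.02 CPM, Ube3c 28.9 CPM and H2-K1 81.5 CPM, against control means of 194.5, 82.8, 56.6 and 18.45 CPM.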

How the data were processed

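Smart-seq2 libraries, which keep no strand and have no molecular identifiers, came from 9 control embryos, 8 HU embryos and 12 single cumulus cells. The authors deposited raw counts per gene and an FPKM table. The submitters' processing notes name mm10, STAR 2.7.3a, R 4.0.2 and FastQC. What counted the reads, with which annotation and strand setting, and how reads with several matches were handled is not given in the sources used here. For 18588 of 18588 genes with counts in at least 2 libraries, the deposited FPKM was the count over the library's gene total and over 1 whole-number length (tolerance 0.001). The 92 rows of ERCC spike-ins entered no library size and no test.

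CPM are counts scaled to a common total of gene counts. HU and control embryos were compared with edgeR 4.0.16 in R 4.3.3 (quasi-likelihood F test, TMM, filterByExpr, 17 embryos, no covariate), with Benjamini-Hochberg adjustment over 11476 genes and a threshold of 0.05. DESeq2 1.42.0 and limma 3.58.1 (voom) were alternatives. Shares were compared by a 2-sided exact permutation test over 24310 splits of the embryos. Nothing in the labels ties embryos to separate females, cultures or days, and p-values then measure only the spread between these samples, which may be technical. The edgeR fit was tested on simulated data. Cumulus cells were summed, with exact Poisson intervals at 95%. Each ratio adds 1 CPM and calls 2-fold, among genes of at least 10 CPM on the higher side.

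Members and lists were chosen with earlier results of these data known. Genes named were the catalytic, inducible, tissue-specific, activator and inhibitor genes, the highest and lowest FPKM of each role, the 3 smallest p in each direction and any unadjusted p under 0.05, the 5 largest cumulus ratios each way, Psmc3ip, and the 2 most abundant genes of each further list. A gene that the rule names is not reported here. Psmd1, Psmd11 and Psmg1 were named after their values were seen. Positions are from GENCODE M21 on GRCm38, where 24 of the 50 genes are overlapped by another gene. Other settings tried were size factors, scaling (Rn45s, ERCC), filter, samples in the fit, a replicate block, pseudocount, fold, the reference embryos and leaving out each library. Leaving out 3 cells together, and each control from the cumulus comparison, was chosen after seeing the data.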

Additional observations from a re-analysis of the deposited data

Results flagged for a closer look

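Each gene's values were screened for a single embryo far from the rest of its group, by Dixon's test of the gap to the next value, over 92 groups of values. Chance alone flags about 1 in 20 such groups of normally distributed values, and 11 were found. All 11 were the highest embryo of their group. The rate for skewed values such as CPM was not tested, so whether 11 is more than chance would give cannot be judged.

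Control 3 was far above the other controls for Psma5 (94.4 CPM, next 63.6 CPM), Psmb5 (35.5 CPM, next 10.4 CPM) and Psmc3ip (129 CPM, next 52.8 CPM). Control 6 was far above for Psme1 (88.7 CPM, next 34.8 CPM) and Psme2 (148 CPM, next 56.1 CPM), which lie near each other on chromosome 14 and form 1 activator ring. Control 2 stood at 360.0 CPM for Psmd3 (next 277 CPM) and control 5 at 408 CPM for Psmd5 (next 226 CPM). Among HU embryos, HU 4 stood at 186 CPM for Psma2 (next 115 CPM) and 335 CPM for Psmd5 (next 225 CPM), HU 2 at 33.7 CPM for Psmb10 (next 14.2 CPM) and HU 7 at 29.1 CPM for Psmg3 (next 13.0 CPM).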

How the results depend on the processing

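No proteasome gene passed the adjusted threshold in any of the 25 other fits of HU against control embryos, and the median log2 fold change of the tested members stayed above 0, at 0.09 to 0.22 with each embryo left out and 0.29 with ERCC scaling. At an unadjusted p under 0.05, all genes split into 617 higher and 25 lower with ERCC scaling, 350 and 356 with limma-voom, 501 and 309 with DESeq2 (3 genes passed adjustment), 1193 and 797 with no filter, and 42 and 18 with all 3 groups in the fit, where 0 members were under 0.05. The 437 higher genes became 282 without HU 5, and the 234 lower genes 424 without HU 1 and 353 without HU 8. The 2 higher members became 4 without HU 1, control 5 or control 8, and 3 without HU 3, HU 8 or control 3. The 0 lower members became 1 without HU 1, HU 3, HU 4, HU 8, control 3 or control 8. Over all genes, 1 gene, no member, passed adjustment in edgeR without HU 8, and 0 in the other edgeR fits. Psmd2 had a log2 fold change of 0.54 to 0.73 and Psmb7 of 0.67 to 0.95 with each embryo left out, and Psme1 of -1.38 to -0.22.

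For cumulus cells against controls, 6 members were at least 2-fold higher and 11 lower, 5 to 8 and 9 to 11 with each cell or each control left out, and the median ratio was 0.13 to 0.29. The counts were 27 and 6 without Rn45s and mitochondrial genes, 28 and 6 with TMM factors, and 2 and 6 at 4-fold. The median ratio stayed above 0 except against HU embryos (-0.03). Psmd5 had -1.37 with TMM factors. The HU minus control difference in the Psmb9 share (1.12 points) ran from -1.53 to 3.65 points with each embryo left out, and that of the Psmb10 share (-0.99) from -2.59 to 1.29. The Psmb8 share ran from -23.2 to -9.15 points and the Psme3 share from 0.28 to 8.92.

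Control and HU embryos share the numbers 1 to 8 in the labels. Deviations of same-numbered embryos correlated at -0.10 to 0.17, and 1 of 8 pairs correlated best with its own number. The labels give nothing but the number, and such correlations cannot exclude a shared day or female for some pairs. With the replicate block 0 members passed and the median of members was 0.11. An unadjusted p under 0.05 was then reached by 274 genes in the higher and 262 in the lower direction.

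Psmb5, Psmb8, Psmb10 and 4 of the 7 chaperone genes lay near or under 10 CPM in embryos. The Psmb8 share of single embryos spread from 0% to 100%, against 0% to 28.55% for the Psmb10 share. The part of low counts in this spread was not tested.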
